A study of Homo sapiens with 4 samples.

Results

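Ferritin genes and antioxidant genes of the NRF2 programme were examined in 2 lists of RNA polymerase II (Pol II) peaks from the SK-OV-3 ovarian cancer cell line. The members were 10 protein-coding genes chosen by name for their function, of 20033 in GENCODE release 44: NFE2L2, FTH1, FTL, TXNRD1, NQO1, HMOX1, GCLM, SRXN1, PRDX1 and SLC7A11. One list came from cells that carried a control short hairpin RNA directed at bacterial LacZ (shLacZ), and the other from cells whose hairpin was directed at RRN3 (shRRN3), an initiation factor of RNA polymerase I. Each hairpin had 1 Pol II library from chromatin immunoprecipitation with sequencing. Its input library was not analysed here. There were no replicates, so a difference between the lists compares these libraries and could not be set against a spread between replicates, and no p-value was computed. Every peak with its midpoint in the transcript of a member or in the 5 kb around it was recorded.

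NRF2, the protein made from NFE2L2, is a transcription factor that KEAP1 holds at a low level until oxidants or electrophiles modify KEAP1. It then pairs with small MAF proteins and binds antioxidant response elements near genes for glutathione synthesis, thioredoxin and peroxiredoxin recycling, quinone reduction, heme breakdown and iron storage. Ferritin, built from FTH1 and FTL chains, stores iron in a form that does not feed the production of hydroxyl radicals. Pol II at a gene start can be initiating or paused, and Pol II past the end of a gene is often found where termination takes place.

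The core letters of the antioxidant response element, TGACNNNGC, and their full form TGACTCAGC were searched on both strands in the 5 kb before the start of each gene in GRCh38. TGACTCAGC also holds the letters TGACTCA, which AP-1 factors can bind, and every match to it is a match to the core. The full form was found before 4 of the 10 members, NQO1, FTH1, FTL and HMOX1, and before 6.46% of 20007 protein-coding genes. The core form was found before 8 of the 10 members, but also before 83.7% of those genes. Of 16 core matches at 8 members, 2 lay in peaks of both lists, 2 in a shRRN3 peak alone and 12 in no peak. The last included the matches nearest a start, 34 bases before GCLM and 99 bases before the representative (MANE Select) start of TXNRD1. Internal starts were not part of this upstream search. Counted separately, the 250 bases before an internal TXNRD1 start (104287032) held 1 core match. All 250 bases lay in shRRN3 peaks and 0 in shLacZ peaks. Around peak midpoints, 1 of the 37 shRRN3 peaks of the members held the full form, against 2.57% of all shRRN3 peaks. That peak lay within TXNRD1 (104298392 to 104298702). Of the 12 shLacZ peaks of the members, 0 held the full form there. Shown are the 4 full matches of the upstream search, and its match at PRDX1 because it was the other one inside peaks of both lists. Each is written along the strand of the match, with the motif in capitals:
NQO1: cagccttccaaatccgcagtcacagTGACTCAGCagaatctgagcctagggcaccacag
FTH1: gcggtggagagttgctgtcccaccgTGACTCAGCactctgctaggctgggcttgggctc
FTL: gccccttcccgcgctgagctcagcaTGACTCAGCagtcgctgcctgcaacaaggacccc
HMOX1: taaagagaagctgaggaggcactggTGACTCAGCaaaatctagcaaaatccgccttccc
PRDX1: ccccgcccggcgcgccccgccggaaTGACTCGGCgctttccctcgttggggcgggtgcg

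The NQO1 stretch (chr16:69726982-69727040, minus strand) carried its motif 455 bases before the start, inside a peak of both lists. The PRDX1 stretch (chr1:45521992-45522050, plus strand) carried its motif 141 bases before the start, also inside a peak of both lists. The FTH1 motif (chr11:61972018-61972076, plus strand) lay 4417 bases before the start, inside a peak of shRRN3 only. The FTL motif (chr19:48963917-48963975, plus strand), 1367 bases before the start, and the HMOX1 motif (chr22:35377131-35377189, minus strand), 3940 bases before the start, lay in no peak of either list. A match describes letters in the reference and does not show that a factor was bound.

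The shLacZ list held 4014 peaks with a median width of 304 bp, and the shRRN3 list held 14363 peaks with a median width of 432 bp. The number of reads behind either list is unknown, so a peak that is missing from a list was not detectable at that threshold and is not shown to be absent. Scores are those of the authors' peak caller, depend on depth and are given here with the rank of the peak in its own list, rank 1 being the highest. The lists differ in length, so ranks are not read across them. RRN3 itself had 0 peaks in its transcript or the 5 kb around it in both lists, which therefore gave no check of the knockdown. Of 10 genes taken as markers of SK-OV-3 or epithelial cells, 2 had a start peak in shLacZ and 5, VIM among them, in shRRN3. The shares over all protein-coding genes were 8.18% and 25.4%. EPCAM, ERBB2, WT1 and CDH1 had no peak in either list. Of 4 markers of other cell types, 0 had a start peak in either list, and PECAM1 had a peak in its window in shRRN3.

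The windows of the 10 members held 12 shLacZ peaks at 6 genes and 37 shRRN3 peaks at 8 genes. Among all protein-coding genes, the share with any peak in the window was 13.5% for shLacZ and 36.9% for shRRN3. Peaks covered 7776 bp of the members' windows in shLacZ and 26411 bp in shRRN3, 3.40 times as much, and over all protein-coding genes the ratio was 5.14. The median member had 264 covered bases in shLacZ and 2327 in shRRN3, and the median over all genes was 0 in both lists. At least 1 bp was shared with a shRRN3 peak by 11 of the 12 shLacZ peaks, or 91.7% (exact Clopper-Pearson 95% interval 61.5% to 99.8%, which covers counting error only), against 66.2% of all shLacZ peaks on chromosomes 1 to 22, X and Y. In the other direction, 10 of the 37 shRRN3 peaks met a shLacZ peak, or 27.0% (13.8% to 44.1%), against 16.9% of all. These intervals treat peaks as independent, but 5 of the 12 shLacZ peaks lay at FTH1 and 3 at NFE2L2. Neighbouring peaks of a gene can be parts of 1 stretch, so the intervals may be too narrow. The shares also depended on the overlap asked for. When 50% of both peaks had to be shared, 4 of the 12 shLacZ peaks qualified, or 33.3% (9.92% to 65.1%), against 38.6% of all, and 4 of the 37 shRRN3 peaks, or 10.8% (3.03% to 25.4%), against 10.6%.

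**Figure D1:**
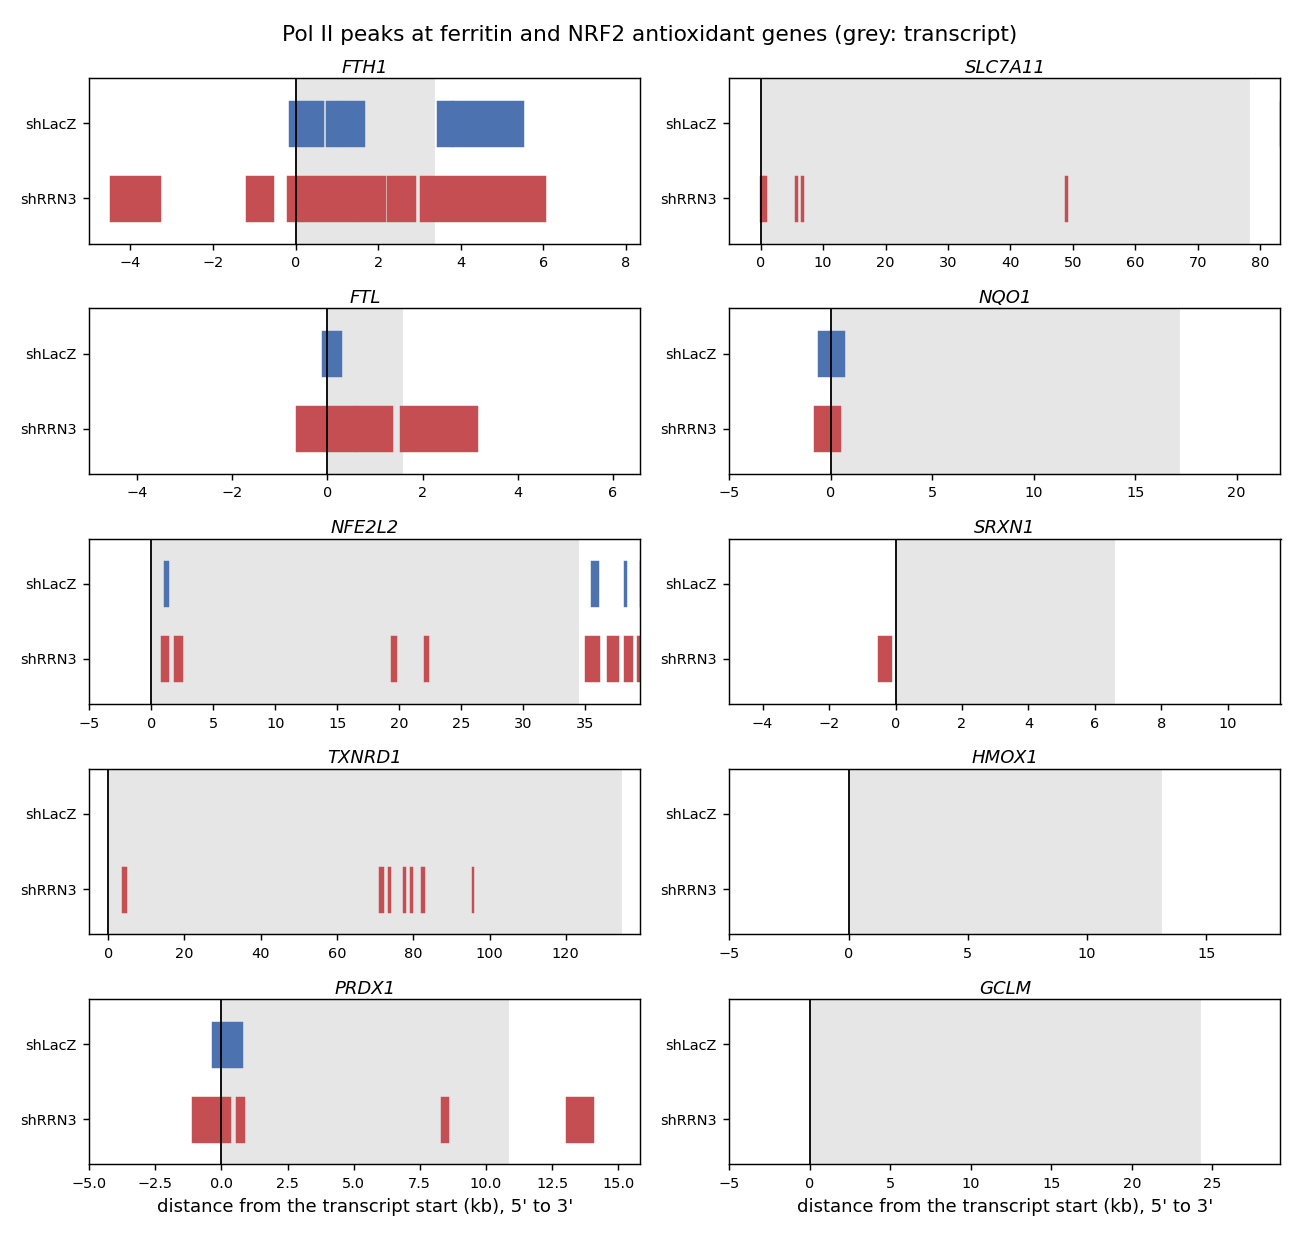
Peaks of shLacZ (upper row, blue) and shRRN3 (lower row, red) at each of the 10 genes, drawn along the strand of the gene against the distance from the transcript start in kb. The transcript is shaded grey and 5 kb is shown on each side; shRRN3 has 37 peaks with their midpoints in these windows and shLacZ 12, of which that of SLC7A11 is cut by the right edge, and HMOX1 and GCLM have none.

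A start peak, meaning a midpoint within 1 kb of the start of the representative (MANE Select) transcript, was found in shLacZ at FTH1, FTL, NQO1 and PRDX1. This was 4 of 10 members, with a background of 8.18% of protein-coding genes. In shRRN3 the same 4 genes had one, together with SRXN1 and SLC7A11, which was 6 of 10 members beside a background of 25.4%. SRXN1 and SLC7A11 thus had a start peak in shRRN3 alone, as did 18.4% of all genes. Neither was among the highest-scoring 3920 shRRN3 peaks, a reduced list as long as that of shLacZ on the primary chromosomes. In the reduced list the members with a start peak were the 4 of shLacZ, with a background of 10.5%.

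Start peaks of the members were compared with those of all genes by width and by score. The best start peak of the 4 members in shLacZ had a median width of 979.5 bp, against 489 bp over the 1638 genes with one, and the narrowest, at FTL, had 396 bp. In shRRN3 the median was 1248.5 bp over 6 members, SRXN1 and SLC7A11 included, against 650 bp over 5090 genes. By score, the best start peak of the members stood at a median of the top 17.6% of the shLacZ list and the top 5.28% of the shRRN3 list. The medians over all genes with a start peak were the top 43.4% and the top 34.3%. The range over members was from the top 5.73% (FTH1) to the top 34.6% (NQO1) in shLacZ, and from the top 0.717% (FTH1) to the top 64.4% (SRXN1) in shRRN3.

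**Figure D2:**
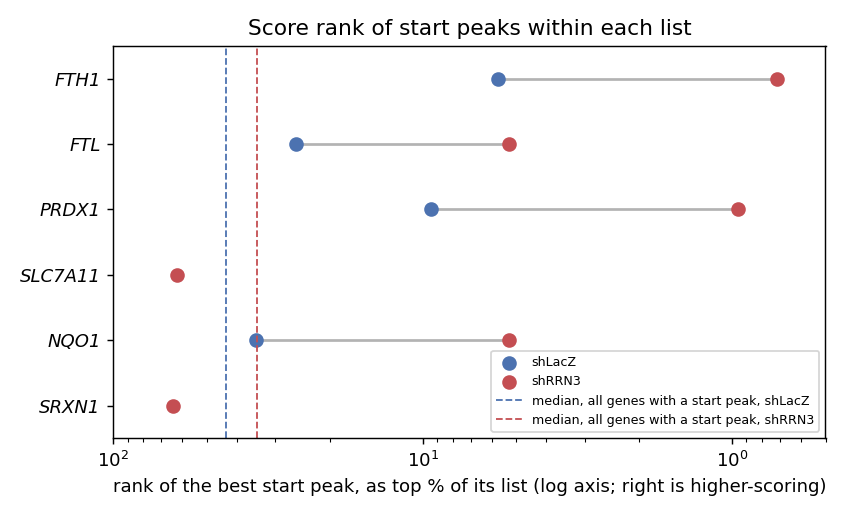
Rank of the best start peak of each member within its own list, as the top percentage of the list on a reversed log axis, with shLacZ in blue and shRRN3 in red and the medians over all genes with a start peak dashed. FTH1, FTL, PRDX1 and NQO1 sit to the right of the median in both lists, while SLC7A11 and SRXN1 have only a shRRN3 peak, to the left of it.

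FTH1 encodes the ferritin heavy chain, whose ferroxidase site oxidises iron for storage. Its transcript spans 3350 bp on the minus strand of chromosome 11 (61964285 to 61967634). At the start, shLacZ had a peak of 806 bp with a score of 204 (rank 230 of 4014), reaching from −152 to 653 bp of the start. The shRRN3 peak there was 1622 bp wide with a score of 580 (rank 103 of 14363), reaching from −213 to 1408 bp. In shLacZ a second start peak (363 bp, score 69.3, rank 1805) at 741 to 1103 bp and a body peak (523 bp, score 52.4, rank 3503) at 1128 to 1650 bp followed the first. The single shRRN3 peak thus met 3 peaks of shLacZ, the last of which reached farther into the gene. Peaks covered 26.7% of the remaining body in shLacZ and 92.6% in shRRN3.

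The highest-ranked peak of any member in either list was not at a start but past the end of the representative FTH1 transcript. In both lists this peak lay inside the outer bounds of the annotated gene (61959718 to 61967634). By those bounds FTH1 had no past-the-end peak, and the values below hold for the representative transcript only. In shLacZ the peak was 1730 bp wide with a score of 642 (rank 40), and its midpoint lay 1300 bp past the transcript end. In shRRN3 it was 3049 bp wide with a score of 1478 (rank 16), and its midpoint lay 1178 bp past the end. In covered bases FTH1 had 2085 bp past its end against 1065 bp at its start in shLacZ, and 2702 against 1666 bp in shRRN3. As a share of each region the order turned, since the region past the end is 5000 bp long and the start region 2000 bp: 41.7% past the end against 53.3% at the start in shLacZ, and 54.0% against 83.3% in shRRN3. The ratio of covered bases past the end to those at the start was 1.96 and 1.62, and the pooled ratio over the same regions of all genes with start coverage was 0.105 in shLacZ and 0.218 in shRRN3. By covered bases past the end, FTH1 stood at rank 7 of 20033 genes in shLacZ and at rank 42 in shRRN3. The stretch is shared with BEST1, a chloride channel gene on the opposite strand that had 0 start peaks in either list and whose transcript ends just inside that of FTH1. The peaks carry no strand, so their parts in FTH1 and BEST1 transcription cannot be told apart.

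Upstream of FTH1, shRRN3 alone had a peak of 1210 bp at 61970930 to 61972139 with a score of 207 (rank 830). It reached from −4505 to −3296 bp of the start and held the FTH1 motif shown above, as well as a second core match, TGACAAAGC, 4458 bases before the start. It overlapped no annotated gene. A weaker shRRN3 peak (score 73.9, rank 7280) lay at −1198 to −548 bp, overlapping an unnamed gene on the other strand.

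FTL encodes the ferritin light chain, which helps to form the iron core. Its transcript spans 1571 bp on the plus strand of chromosome 19 (48965309 to 48966879). In shLacZ its single peak, 396 bp wide with a score of 90.5 (rank 1035), straddled the start. In shRRN3 the overlapping peak was 1225 bp wide with a score of 216 (rank 758), a further peak of 772 bp (score 107, rank 3677) followed it within the gene, and another of 1611 bp (score 218, rank 748) lay across the end. The gene and its flanks were thus covered from −651 to 3146 bp of the start, apart from short gaps, in shRRN3 and only around the start in shLacZ. Past the end, 0 bp were covered in shLacZ against 1576 bp in shRRN3. That peak also covered the end of GYS1, the muscle glycogen synthase gene on the opposite strand, 1251 bp past the FTL end, and GYS1 had 0 start peaks in shLacZ and 1 in shRRN3.

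Both ferritin genes have many processed pseudogenes, copies of the mRNA inserted elsewhere in the genome, and how reads shared between copies were treated is not stated. None of the 23 annotated FTH1 pseudogenes, 16 FTL pseudogenes and 1 PRDX1 pseudogene was recorded with a peak in either list, and of all 10660 processed pseudogenes 0.178% were in shLacZ and 0.488% in shRRN3. With shares this low over all copies, the lack of peaks at so few of them does not show how shared reads were treated. Whether such reads contributed to the peaks at FTH1 and FTL was not tested. The genes with the most similar coverage to FTH1, over the start, body and past-the-end shares in both lists, were ACTG1, EIF1 and S100A6, and those most similar to FTL were MYL6, DYNLL1 and PCBP1. The distances were 30.7, 35.9 and 36.5 percentage points for FTH1 and 18.1, 19.8 and 23.2 for FTL. These are descriptions over 2 lists.

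NFE2L2 itself had no start peak in either list by the 1 kb rule. Its transcript spans 34420 bp on the minus strand of chromosome 2 (177230308 to 177264727). In shLacZ the nearest peak (281 bp, score 76.9, rank 1462) had its midpoint 1192 bp into the gene. In shRRN3 the overlapping peak (543 bp, score 66, rank 8779) was centred 1088 bp into it, and a stronger one (646 bp, score 131, rank 2419) followed at 2189 bp. The midpoints of the overlapping peaks lay within the first intron of the representative transcript. They were 2 bp and 11 bp from the nearest annotated NFE2L2 transcript start, which was a different start for each. NFE2L2 has 44 annotated transcript starts, so lying near one of them says little by itself. A further 2 intronic peaks were listed in shRRN3 alone, with scores of 93.5 and 89.3.

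Past the end of its representative transcript, NFE2L2 had 2 peaks in shLacZ and 4 in shRRN3. All of them lay inside the outer bounds of the annotated gene, which begin at 177218667. By those bounds NFE2L2 had no past-the-end peak in either list. The strongest in shLacZ, 575 bp wide with a score of 153 (rank 372), was centred 1339 bp past the end, and the strongest in shRRN3, 1139 bp wide with a score of 189 (rank 1035), was centred 1136 bp past it. Both overlapped DNAJC19P5, a pseudogene on the strand of NFE2L2. Peaks covered 768 bp past the end in shLacZ against 2757 bp in shRRN3, ranks 97 and 37 of 20033 genes. HNRNPA3, an RNA-binding protein gene with 1 start peak in each list, ends on the opposite strand 6349 bp past the NFE2L2 end, so the 2 genes converge on this stretch. Which of them the peaks belong to cannot be told apart.

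PRDX1 encodes a peroxiredoxin, an enzyme that reduces hydrogen peroxide with electrons from thioredoxin. Its transcript spans 10834 bp on the minus strand of chromosome 1 (45511051 to 45521884). The shLacZ start peak was 1153 bp wide with a score of 152 (rank 377) and reached from −359 to 793 bp. The best shRRN3 start peak was 1435 bp wide with a score of 477 (rank 138) and reached from −1121 to 313 bp, so it lay farther upstream than the shLacZ peak. A second shRRN3 peak at 556 to 846 bp (score 53.1, rank 12724) overlapped the downstream part of the shLacZ peak. Past the end, shRRN3 alone had a peak of 1012 bp (score 109, rank 3569), centred 2713 bp past it and inside MMACHC, a cobalamin-processing gene on the opposite strand with 0 start peaks in either list.

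TXNRD1 encodes the thioredoxin reductase of the cytosol, which passes electrons from NADPH to thioredoxin. It had 0 peaks in shLacZ and 9 in shRRN3, and 82 protein-coding genes, or 0.409%, TXNRD1 included, had as many or more in shRRN3. The count was not adjusted for length, and the TXNRD1 window is long, at 144529 bp. None of the 9 was at the start of the representative transcript, which spans 134529 bp on the plus strand of chromosome 12 (104215779 to 104350307). The strongest, 1129 bp wide with a score of 181 (rank 1145), was centred 71523 bp into the gene at 104286738 to 104287866. Its midpoint lay 20 bp before another annotated TXNRD1 transcript start. Of 19 distinct transcript starts of the gene, 14 had a shRRN3 peak within 1 kb and 0 a shLacZ peak. The strong peak therefore stands at internal starts, and 5 of the other 8 peaks followed it between 73631 and 82768 bp. In the reduced shRRN3 list 2 of the 9 remained. The genes with the most similar coverage, METTL5, SLC30A1 and LIMK1, shared with TXNRD1 only a small covered share of the body in shRRN3, 2.93% for TXNRD1, and no coverage elsewhere.

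SRXN1 encodes sulfiredoxin, which repairs overoxidised peroxiredoxins. It had 0 peaks in shLacZ and 1 in shRRN3 (380 bp, score 64.1, rank 9248), which reached from −525 to −146 bp of the start (chromosome 20, 653346 to 653725). The peak lay inside a readthrough gene on the same strand that also spans SRXN1. It was in the lower part of its list.

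SLC7A11 encodes the cystine transporter subunit that supplies cysteine for glutathione. Its transcript spans 78253 bp on the minus strand of chromosome 4 (138164097 to 138242349). At the start, shRRN3 alone had 2 peaks, of 461 bp with a score of 57.7 (rank 11093) and of 442 bp with a score of 65.2 (rank 8960). Within the gene, shRRN3 had 3 peaks, the strongest with a score of 113 (rank 3237), centred 6694 bp into it. The single shLacZ peak (score 52.6, rank 3471) was centred 4986 bp past the end, near the edge of the recorded window, and was the one shLacZ peak of the members that no shRRN3 peak overlapped. GCLM, which encodes the modifier subunit of the enzyme that starts glutathione synthesis, had 0 peaks in both lists.

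NQO1 encodes a quinone reductase. Its single peak was 1269 bp wide in shLacZ, with a score of 78.5 (rank 1388), and 1272 bp in shRRN3, with a score of 216 (rank 759). Among the members with any peak, it was the one whose coverage was nearly equal in the lists. The shRRN3 peak reached from −831 to 440 bp of the start and the shLacZ peak from −635 to 633 bp, so the midpoint in shRRN3 lay 195 bp farther upstream. Upstream of NQO1 lies the noncoding gene NQO1-DT on the opposite strand, and both peaks overlapped it. HMOX1, which encodes the inducible heme oxygenase that releases iron from heme, had 0 peaks in both lists.

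**Figure D3:**
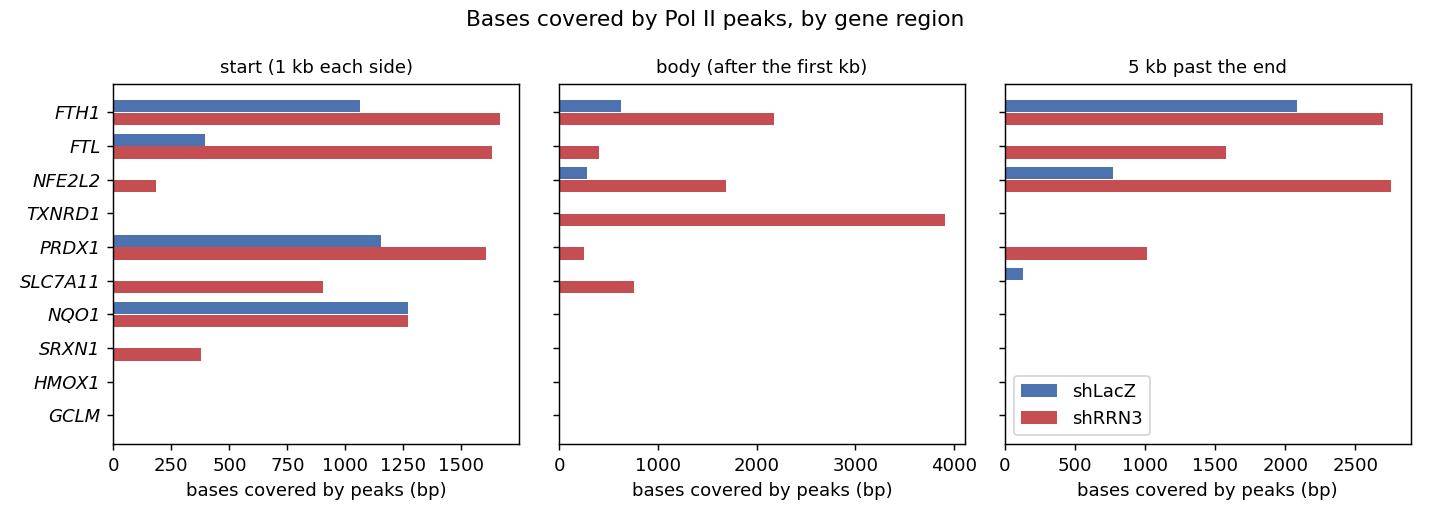
Bases covered by peaks at the start (1 kb on each side), in the body after the first kb and in the 5 kb past the end of each gene, with shLacZ in blue and shRRN3 in red, each panel with its own axis in bp. At the start NQO1 has 1269 and 1272 bp, TXNRD1 has 3914 bp in the body in shRRN3 alone, and FTH1 and NFE2L2 reach 2702 and 2757 bp past the end in shRRN3.

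The start, the body and the stretch past the end were then set side by side. Start coverage of the members summed to 3883 bp in shLacZ and 7641 bp in shRRN3, a ratio of 1.97, and the ratio over all genes was 4.32. Past-the-end coverage summed to 2985 and 8047 bp, a ratio of 2.70, against 4.98 over all genes. Body coverage summed to 908 and 9194 bp, a ratio of 10.1, against 7.0 over all genes. The body ratio rested on TXNRD1, with 0 and 3914 bp, and was 5.81 without it, below that of all genes. The ratio past the end rested on FTH1 and was 5.94 without it, above that of all genes. The start ratio stayed below that of all genes with any 1 member left out, between 1.72 and 2.44. A body peak was found at 2 members in shLacZ (NFE2L2 and FTH1) beside a background of 3.98%, and at 5 in shRRN3 (those 2 with TXNRD1, PRDX1 and SLC7A11) beside 13.7%. A peak past the end was found at 3 members in shLacZ (NFE2L2, FTH1 and SLC7A11) beside a background of 2.42%, and at 4 in shRRN3 (NFE2L2, FTH1, FTL and PRDX1) beside 8.09%.

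FTH1, FTL, PRDX1 and NQO1 have a protein-coding gene that ends on the opposite strand within the gene or the 5 kb past it, and of these 4, FTH1 had a past-the-end peak in shLacZ and FTH1, FTL and PRDX1 had one in shRRN3. Over all protein-coding genes, 2.53% of 3960 with such a neighbour had a past-the-end peak in shLacZ (95% interval 2.06% to 3.06%), against 2.39% of 16073 without one (2.16% to 2.64%). In shRRN3 the shares were 8.84% (7.97% to 9.77%) and 7.90% (7.49% to 8.33%). The intervals overlapped in both lists, and they cover counting error only.

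**Figure D4:**
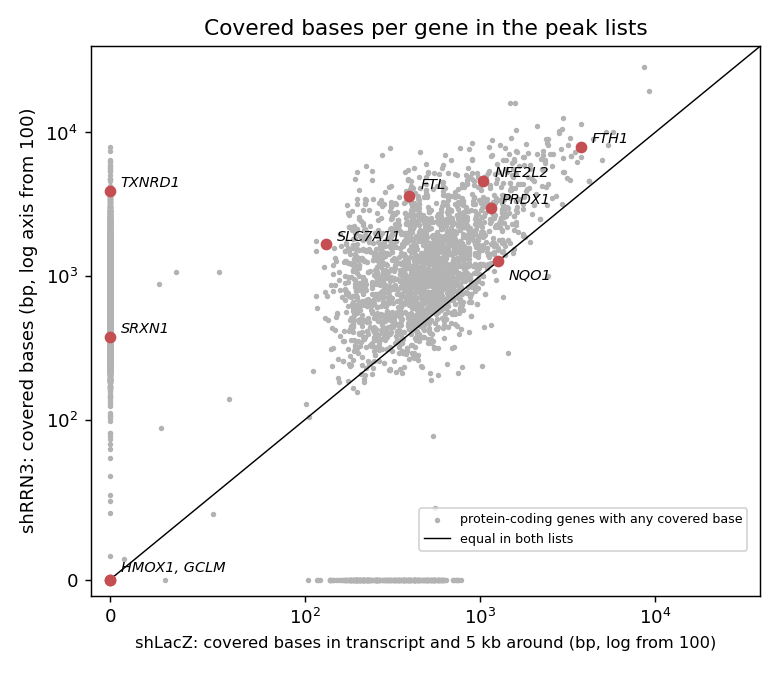
Bases covered by peaks in the transcript and the 5 kb around it in shLacZ (horizontal axis) and shRRN3 (vertical axis), in bp on axes that are logarithmic from 100, for all protein-coding genes with any covered base (grey) and the 10 members (red). FTH1, with 3777 and 7952 bp, lies near the upper right end, NQO1, with 1269 and 1272 bp, lies on the line of equality, and TXNRD1 and SRXN1 lie at 0 in shLacZ.

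Other genes of the same biology came from a list of 83 that held no member. A start peak was found at 13 of them in shLacZ, or 15.7%, and at 27 in shRRN3, or 32.5%, beside the backgrounds of 8.18% and 25.4%. Both lists had one at 10 genes, shRRN3 alone at 17 and shLacZ alone at 3. Over all protein-coding genes, 18.4% had a start peak in shRRN3 alone. In the reduced shRRN3 list 11 of the 83 had a start peak, beside a background of 10.5%. The same backgrounds apply to the counts by role below, each of which rests on few genes.

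Among genes that control NRF2, 3 of 10 had a start peak in shLacZ and 4 in shRRN3. RBX1, the RING subunit of the ligase that marks NRF2 for degradation, had scores of 110 (rank 672) in shLacZ and 257 (rank 511) in shRRN3. NFE2L1, which encodes a factor related to NRF2, had scores of 61.8 (rank 2350) and 152 (rank 1734). KEAP1 had a start peak in shLacZ alone, with a score of 50.5 that was near the lowest listed (rank 3928). In shRRN3 it had 1 peak in its body.

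Thioredoxin and peroxiredoxin genes had a start peak at 7 of 11 in shRRN3 and 3 of 11 in shLacZ. Those 3 were TXN, TXN2 and TXNIP, which encode the thioredoxins of the cytosol and of mitochondria and a protein that binds thioredoxin. TXN had scores of 95.3 (rank 914) in shLacZ and 164 (rank 1474) in shRRN3. TXN2 had 70.6 (rank 1728) and 120 (rank 2828), and TXNIP had 72.8 (rank 1634) and 209 (rank 808). In the reduced shRRN3 list 3 of the 11 had a start peak.

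In the glutathione group, 1 of 15 genes had a start peak in shLacZ and 2 in shRRN3. The former was SLC3A2, the heavy chain that pairs with SLC7A11, with a score of 106 (rank 732) in shLacZ and no start peak in shRRN3. A peak in the SLC3A2 body was listed in shRRN3 alone, and each list had 1 peak past its end. Of 22 genes of NADPH supply and detoxification, 2 had a start peak in shLacZ and 6 in shRRN3. AKR1A1, an aldehyde reductase, had scores of 79.4 (rank 1366) and 135 (rank 2285). TKT, the transketolase of the pentose phosphate pathway, had a start peak in shLacZ alone with a score of 57.7 (rank 2779). In shRRN3 it had 1 peak in its body.

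Of 18 iron and heme genes, 3 had a start peak in shLacZ and 5 in shRRN3. TFRC, the transferrin receptor, had scores of 87.8 (rank 1089, the top 27.1% of the list) in shLacZ and 78.6 (rank 6550, the top 45.6%) in shRRN3. PCBP2, an iron chaperone that also binds RNA, had scores of 69.7 (rank 1774, the top 44.2%) and 253 (rank 530, the top 3.69%). PCBP1, which delivers iron to ferritin, had 54.5 (rank 3185) and 121 (rank 2802). Of 7 other antioxidant genes, 1 had a start peak in shLacZ and 3 in shRRN3, and SOD2, the superoxide dismutase of mitochondria, had scores of 91.7 (rank 1009) and 199.9 (rank 914).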

How the data were processed

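Pol II chromatin from shLacZ and shRRN3 SK-OV-3 cells was immunoprecipitated and sequenced on a BGISEQ-500 instrument. The authors deposited 1 MACS peak list for each hairpin, with coordinates and a peak score, taken here as 10 times the −log10 of the p-value because of its floor near 50. The MACS version, the aligner and the use of the input are not given in the sources used here, and neither are read depths. Per the submitters' processing notes the build was hg38. All 35116 RefSeq promoter sequences of GRCh38 read at their coordinates matched the genome used for the motifs.

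Genes came from GENCODE release 44. Starts and ends were those of the MANE Select transcript, else the Ensembl canonical one. Peaks were assigned by midpoint to the start (1 kb each side), the body and the 5 kb past the end, the window being the transcript and 5 kb around it, and covered bases were summed in the same regions. Ranks use the whole list. The region code was tested on simulated peaks, and overlaps were checked against bedtools 2.31.1. Python 3.11.15, numpy 2.4.6, scipy 1.17.1 and matplotlib 3.10.9 were used.

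The members, the list of 83 related genes and the alternatives were chosen with earlier results of these data known. All members were named, as were up to 3 genes with a shLacZ start peak for each role of that list, and the 3 genes nearest to FTH1, FTL and TXNRD1 by the Euclidean distance over 6 covered shares.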

Additional observations from a re-analysis of the deposited data

How the results depend on the processing

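For 13 results, 85 values under alternatives were computed, of which 74 stayed within 1.5 times of the reported count or ratio, or within the interval of the reported share, and 11 moved. Some of the 74 could not move. Counts from shLacZ alone do not change when only the shRRN3 list is reduced, and covered bases do not depend on the midpoint rule. The count of 74 is therefore not a measure of stability. No paired analysis was possible because there was a single library per hairpin.

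With the shRRN3 list reduced to the length of shLacZ, the members with a start peak in shRRN3 alone became 0, the shRRN3 peaks in the member windows 16 and the related genes with a shRRN3 start peak 11. By construction this drops lower-scoring peaks of one list. With scores of at least 66.05, the shLacZ median, in both lists, the members with a start peak in shRRN3 alone were 0, those with a shLacZ body peak 1 and the shRRN3 peaks in the windows 24. With starts of 2 kb on each side, 0 members had a shLacZ body peak, since the NFE2L2 and FTH1 peaks then counted as start peaks. With the outer bounds of the annotated genes, members with a past-the-end peak became 1 in shLacZ and 2 in shRRN3, since those bounds reach past the transcript ends of NFE2L2 and FTH1. Counts of start peaks that did not move could still rest on other members. With starts of 0.5 kb on each side, FTH1 had no start peak in shRRN3. By the outer bounds, PRDX1 had no start peak in either list. NFE2L2 had a shRRN3 start peak by those bounds, and also where any overlap with the start region counted. The share of shLacZ peaks overlapped became 100% with a 2 kb flank and 33.3% when 50% of both peaks had to be shared. In an alternative chosen after seeing the data, the body coverage ratio of the members, 10.1, became 5.81 without TXNRD1.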

Other observations

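The outer bounds of NFE2L2 (chromosome 2, 177218667 to 177392756) are far wider than its representative transcript, at 174090 bp, and reach the start of AGPS, a gene of ether lipid synthesis on the opposite strand. A shRRN3 peak at 177392491 to 177393465 (975 bp, score 147, rank 1884) lay at that shared stretch, next to an annotated NFE2L2 start, and no shLacZ peak overlapped it. Counted by outer bounds, NFE2L2 would have had a start peak in shRRN3 and none in shLacZ. On the other side, a pair of overlapping peaks (score 106, rank 726 in shLacZ, and score 272, rank 435 in shRRN3) lay 5169 and 5185 bp past the NFE2L2 transcript end, just outside the recorded window. The pair stood between the representative transcript ends of NFE2L2 and HNRNPA3, and inside the outer bounds of NFE2L2.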
